A study of Mus musculus with 2 samples.

Results

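Sensory relay thalamus spots were chosen by the measured level of 6 genes in 2 coronal mouse brain sections, namely Prkcd, Tnnt1, Plekhg1, Rab37, Rora and Synpo2. Each spot with at least 2000 UMIs (unique molecular identifiers, which count captured RNA molecules) was scored by the mean, over these genes, of the natural logarithm of 1 plus the UMIs of the gene per 10000 UMIs of the spot. The 200 highest scores of each section were taken, which gave 400 of 7890 spots in all, or 5.48% and 5.68% of the spots that were deep enough to be scored. Spots were profiled with Visium, in which tissue of 10 µm lies on a grid of barcoded spots of 55 µm, so that a spot is a small region that can hold several cells. One section is labelled as that of a mouse trained in active place avoidance, where an animal on a rotating arena learns to keep out of a shock zone. The other is labelled as that of an untrained mouse, which was placed on the same arena without shock. Both were male ArcCreERT2::eYFPflx mice on a C57BL/6 background, aged 3 to 4 months, in which a tamoxifen-dependent Cre driven by the Arc promoter can switch on a fluorescent reporter. Retention was tested 24 h after the last training, and brains were taken 60 min after the test. Each label therefore rested on 1 section of 1 mouse (n = 1 and n = 1), and label, animal, section and library cannot be told apart. No p-value was derived, and no value had a replicate check. Directions are given for the labels as deposited, which may be exchanged relative to the study's text. In the section labelled untrained a line of grid positions without tissue ran through the tissue, with such inner positions in 52 of 70 grid rows, against 10 of 78 under the label trained. The study's histology shows a tear of this kind most plainly in the animal it calls trained. If the labels are exchanged, every direction between them given here is turned, while ratios within a section are not affected.

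Sensory relay nuclei of the thalamus receive touch, vision and other senses and pass them to the cortex through glutamatergic projection neurons. These neurons load vesicles through the transporter Slc17a6 and switch between tonic and burst firing, in which low-threshold calcium channels open after a period of inhibition. In rodents most relay nuclei hold few inhibitory neurons of their own, and their inhibition comes from the neighbouring reticular nucleus, partly through receptors outside the synapse that contain the Gabra4 and Gabrd subunits.

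The sections differed in depth. In all 29515831 UMIs over 4152 spots were counted under the label trained and 59029131 over 3738 spots under the label untrained. The median relay thalamus spot held 6141 UMIs (quartiles 4716 and 8779) and 15392 UMIs (quartiles 11647 and 20787), and the remaining spots of at least 2000 UMIs had medians of 6670 and 14282. The median share of mitochondrially encoded UMIs was 13.2% and 18.2% in relay thalamus spots, against 12.7% and 16.7% in the remaining spots. Levels below are UMIs pooled over a set of spots and scaled to a total of 1000000 (CPM), from 1382215 and 3346455 UMIs in relay thalamus spots and 27667589 and 55535251 in the remaining spots. Pairs of values give the section labelled trained first. Intervals are 95% intervals for counting error only and cover no spread between animals. Because spots are pooled tissue, more cells of a type and more RNA per cell cannot be told apart. The barcodes of Visium mark grid positions, so 3448 were shared by the sections without marking the same tissue, and 61 positions were chosen in both.

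The scoring genes chose the spots, so their levels describe the choice and test nothing. Prkcd, the delta isoform of protein kinase C, was at 937 CPM (887 to 989) and 896 CPM (864 to 929), against 66.3 and 68.3 CPM in the remaining spots. It was detected in 99.5% and 100% of relay thalamus spots. Rora, a nuclear receptor, reached 479 and 449 CPM. Plekhg1, an exchange factor for small GTPases, reached 273 and 229 CPM, and Rab37, a small GTPase of secretory vesicles, 164 and 153 CPM. Synpo2, an actin-binding protein, reached 206 and 153 CPM. Tnnt1, the slow skeletal muscle troponin T, was the scoring gene that differed most between the sections, at 161 CPM (140 to 183) and 377 CPM (356 to 398). After every spot was thinned to 2000 UMIs, Tnnt1 was still detected in 29.0% (22.8 to 35.8%) and 53.5% (46.3 to 60.6%) of relay thalamus spots, while Prkcd was detected in 80% and 79.5%. All 6 scoring genes were found together in 49 spots (24.5%) and 159 spots (79.5%), against 0.058% and 2.20% of the remaining spots, at the unequal depths given above. The score ran from 1.02 to 1.87 with a median of 1.21 in the section labelled trained, and from 1.18 to 1.88 with a median of 1.35 in the section labelled untrained. The last spot chosen and the first left out scored 1.02196 and 1.02177 in the former, and 1.1824 and 1.17932 in the latter, so the boundary lay in a continuous range of scores. The median score of the remaining spots was 0.123 and 0.147.

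Position on the slide was not used to choose the spots. In the section labelled untrained, relay thalamus spots formed 20 connected patches, of which the largest held 80 and 74 spots and the next 14, and 11 spots had no adjacent member. In the section labelled trained they formed 41 patches, of which the largest held 90 spots and the next 12, and 22 spots stood alone. Of the up to 6 spots adjacent to a relay thalamus spot, 41.2% and 52.4% on average were relay thalamus spots too, against 3.06% and 2.83% around the remaining spots. The spots lay in grid rows 30 to 55 and 34 to 53, with medians of 42 and 43. They lay at a median of 10.25 and 15.75 spot spacings from the middle column of the grid. Within 8 spacings of the middle lay 69 relay thalamus spots under the label trained, against 4 under the label untrained. The columns below the middle held 70 and 94 of the spots and the columns above it 130 and 106, and the former were shallower, with medians of 4508 against 7888 UMIs and of 11795 against 19490.5 UMIs.

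**Figure D1:**
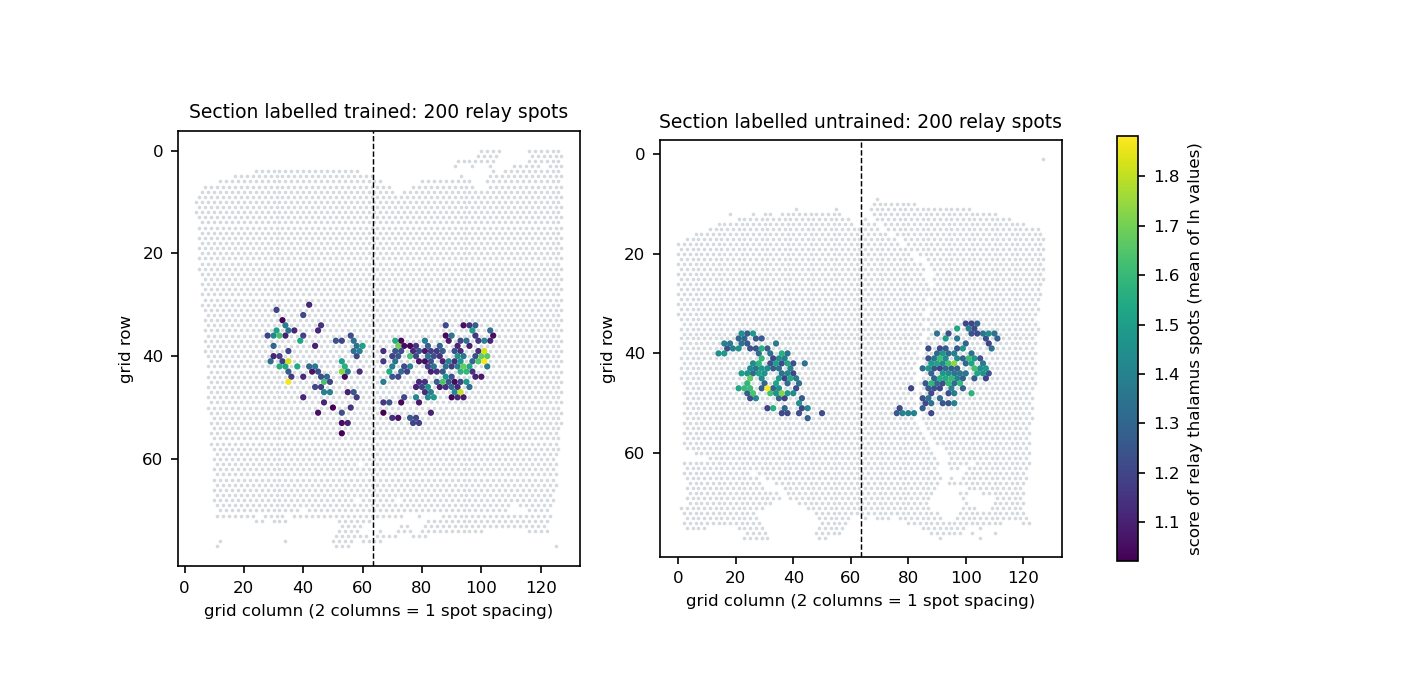
Position of the 200 relay thalamus spots in each section, with the grid column on the x axis and the grid row on the y axis, both in grid units, other spots under tissue in grey, the middle column dashed and colour giving the score. The section labelled untrained shows its largest patches of 80 and 74 spots away from the middle column, with 4 spots within 8 spacings of the middle column, whereas that labelled trained has 69 spots that near.

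The spots were then described through all other genes. Of 10506 genes with at least 200 UMIs in each section, 208 (1.98%) were at least 2-fold higher in relay thalamus spots than in the remaining spots of both sections, and 545 (5.19%) were at least 2-fold lower. Within a single section, 301 (2.87%) and 282 (2.68%) were higher and 879 (8.37%) and 738 (7.02%) lower. No gene passed 2-fold in opposite directions. The median log2 ratio over all genes was −0.07 in both sections. These ratios share the contrast that chose the spots and are a description. Markers of thalamic projection neurons outside the score were high: Tcf7l2, Lef1, Slc17a6, Ntng1, Adarb1 and Ramp3 were each at least 2-fold higher in both sections.

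Genes outside the score were ordered by the smaller of their ratios in the sections, and the first was Shox2, a homeobox transcription factor (chromosome 3, 66971727 to 66981771, minus strand, GRCm38/mm10, 5 exons). It was measured at 190 CPM (168 to 215) against 20.8 CPM and at 123 CPM (112 to 136) against 17.3 CPM, log2 ratios of 3.20 (2.98 to 3.41) and 2.83 (2.66 to 3.002). Patj, a scaffold protein of cell polarity (chromosome 4, 98395785 to 98719603, plus strand, 44 exons), was at 162 against 23.6 CPM and at 169 against 22.2 CPM. Rgs16, which shortens signalling by G proteins (chromosome 1, 153740349 to 153745468, plus strand, 5 exons), was at 99.8 against 15.6 CPM and at 134 against 18.4 CPM. The log2 ratios of these 3 genes lay between 2.68 and 3.20 in both sections. Lef1, a transcription factor of the Wnt pathway (chromosome 3, 131110471 to 131224356, plus strand), was at 91.2 against 11.8 CPM and at 66.3 against 11.2 CPM. Ramp3, which modifies receptors for calcitonin-family peptides (chromosome 11, 6658521 to 6677475, plus strand), was at 299 against 53.6 CPM and at 507 against 67.9 CPM. Ntng1, netrin G1, an adhesion molecule of thalamic axons (chromosome 3, 109780040 to 110144011, minus strand), was at 302 against 52.0 CPM and at 284 against 51.2 CPM. Ramp3 was thus more enriched in the section labelled untrained, with log2 ratios of 2.48 (2.32 to 2.64) and 2.90 (2.82 to 2.98), whereas the intervals for Ntng1 overlapped at 2.54 (2.38 to 2.69) and 2.47 (2.36 to 2.58).

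Of the other leading genes, Ptpn4, a protein tyrosine phosphatase, reached 441 and 362 CPM. Amotl1, an angiomotin-like junction protein, reached 174 and 208 CPM. Cox6a2, the heart and muscle form of a cytochrome oxidase subunit, reached 156 and 209 CPM. Hcn4, a pacemaker channel, was at 34.7 against 5.96 CPM and at 42.4 against 7.27 CPM, a log2 ratio of 2.55 in each section (2.05 to 3.01 and 2.26 to 2.82). Opn3, an opsin, reached 35.5 and 41.8 CPM, and Slitrk6, a synaptic adhesion protein, 68.0 and 29.6 CPM. Sptssb, a subunit of the enzyme that starts sphingolipid synthesis, Nexn, an actin-binding protein, and Gjc1, a gap junction protein, had log2 ratios between 2.31 and 2.65. All 15 leading genes had log2 ratios between 2.30 and 3.20, and their smallest ratio was that of Cox6a2 in the section labelled trained. Some annotations overlap another gene: Shox2 lies opposite Rsrc1, Cox6a2 opposite Itgad, and Opn3 and Amotl1 share strand and position with Chml and 4930584E12Rik. Whether counting used strand was not given in the sources used here, so these values are less certain.

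**Figure D2:**
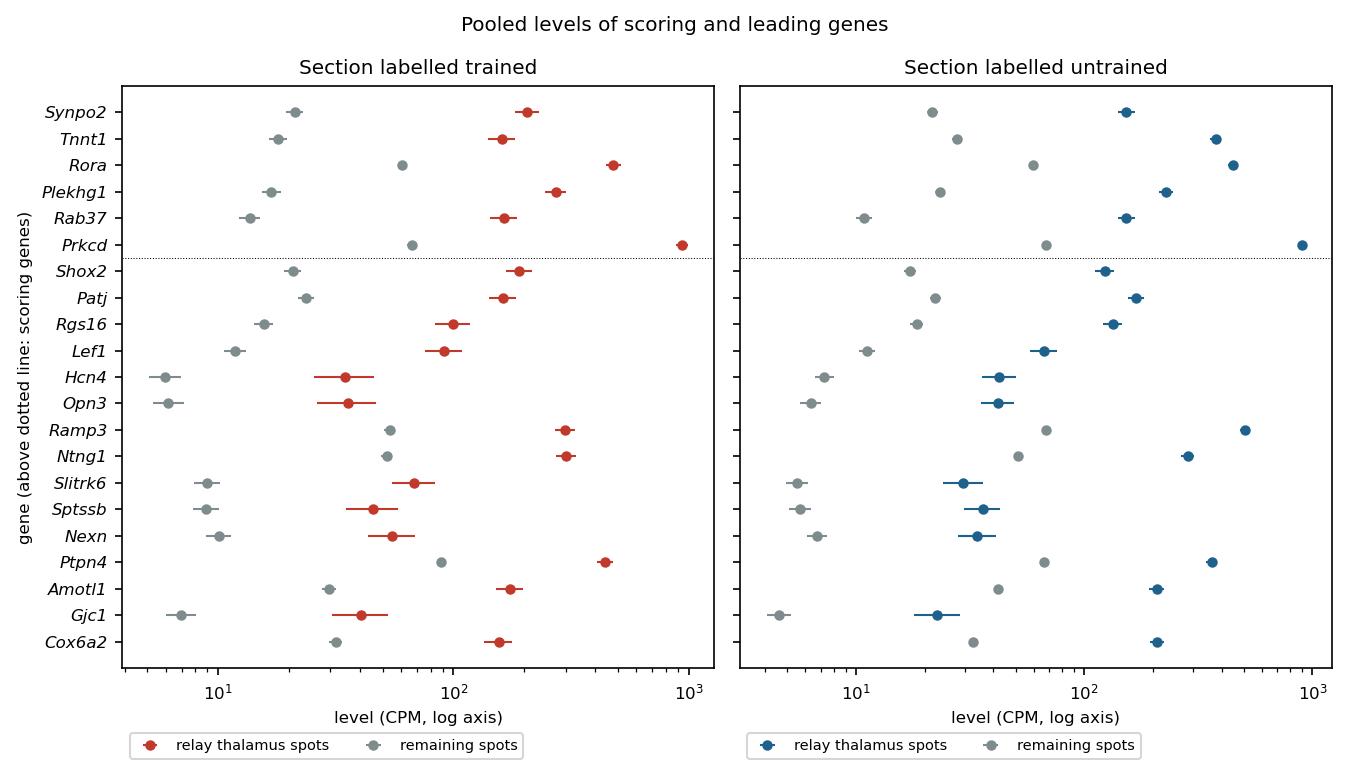
Pooled level in CPM (log x axis) of the 6 scoring genes and the 15 leading genes outside the score (y axis) in relay thalamus spots (coloured) and remaining spots (grey) of each section, with bars for exact Poisson 95% intervals. Each gene lies to the right in relay thalamus spots of both sections, among them Prkcd at 937 and 896 CPM and Gjc1 at 40.5 and 22.7 CPM.

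Transcription factors of the thalamus were largely high together. Of 11 listed, 10 were tested, 8 were at least 2-fold higher in both sections and 1 lower, with median log2 ratios of 1.96 and 1.87. Tcf7l2, the Wnt effector that marks postmitotic thalamic neurons (chromosome 19, 55741820 to 55933654, plus strand, sharing position with Ppnr), was measured at 410 against 73.3 CPM and at 356 against 83.7 CPM. Zic1, a zinc finger factor, was at 228 against 56.6 CPM and at 214 against 51.7 CPM, though its annotation touches that of Zic4 on the opposite strand. Gbx2, a homeobox factor of thalamic development, had log2 ratios of 2.25 and 1.80, the former 1.39 without the spots within 8 spacings of the middle, Zfhx3 of 1.91 and 1.95, Foxp2 of 1.75 and 1.27, and Rorb, a nuclear receptor related to Rora, of 1.60 and 1.41. Lhx2, a LIM homeobox factor of the cortex and of early thalamic development, was the lower one, at 13.7 against 37.0 CPM and at 12.6 against 32.8 CPM. Esrrg had log2 ratios of −0.41 and 0.44, both with intervals that include 0.

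Of 15 further genes of thalamic projection neurons, all 15 were tested and all were at least 2-fold higher in both sections, with median log2 ratios of 2.32 and 2.30. The list was partly assembled from earlier results of these sections, so its count is not independent evidence. Slc17a6, the vesicular glutamate transporter of subcortical neurons, was at 414 against 80.8 CPM, log2 2.36 (2.22 to 2.49), and at 239 against 79.8 CPM, log2 1.58 (1.47 to 1.69). Its level in relay thalamus spots was thus higher under the label trained, while that of the remaining spots differed little. Pdp1, a phosphatase that activates pyruvate dehydrogenase, reached 700 and 560 CPM, Adarb1, an enzyme that edits RNA, 553 and 570 CPM, and Plcb4, a phospholipase downstream of metabotropic receptors, 421 and 312 CPM. Vav3, an exchange factor, and Kitl, the ligand of the Kit receptor, had log2 ratios of 2.47 and 2.30 and of 1.93 and 1.76.

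**Figure D3:**
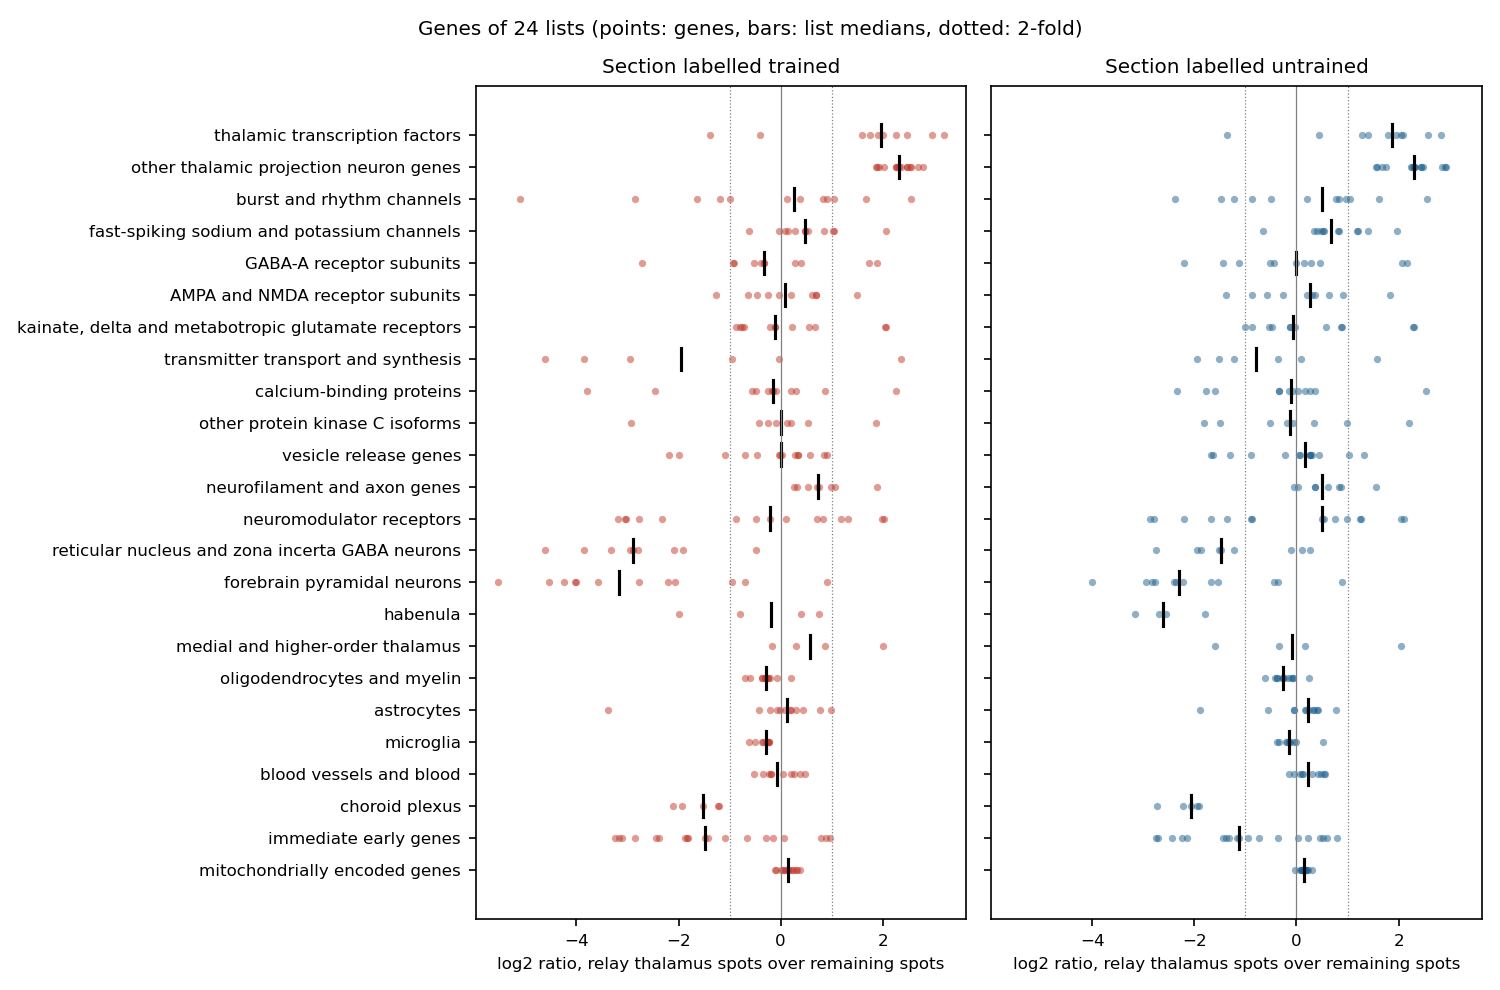
Log2 ratio of relay thalamus spots over remaining spots (x axis) for each tested gene of 24 lists (rows), with black bars for list medians and dotted lines at 2-fold. The lists of thalamic transcription factors and projection neuron genes sit to the right, with medians between 1.87 and 2.32, the medial thalamus list has medians of 0.58 and −0.09, the former −0.32 without the spots near the middle, and the pyramidal and choroid plexus lists to the left, with medians between −3.17 and −1.53.

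Ion channels were mixed. Of 12 genes for burst and rhythm channels, 2 were higher and 3 lower in both sections, with median log2 ratios of 0.25 and 0.50. The low-threshold (T-type) calcium channels were uneven. Cacna1g was higher, at 133 against 41.9 CPM and at 114 against 36.9 CPM, log2 1.67 (1.43 to 1.89) and 1.62 (1.46 to 1.78). Cacna1i, the form of the reticular nucleus, was lower, with log2 ratios of −1.64 and −1.48, and so was Cacna1h, with −2.85 and −1.22. Of the pacemaker channels, Hcn4 was higher, as given above, and Hcn2 had 247 against 132 CPM and 285 against 139 CPM, log2 0.91 and 1.04. Of 13 sodium and potassium channel genes of fast-firing neurons, 12 were tested and 3 were higher in both sections, with medians of 0.47 and 0.67. Kcnc2, a Kv3 potassium channel, was at 415 against 99.1 CPM and at 261 against 66.4 CPM, log2 2.06 and 1.98. Kcnc1, its relative, had log2 ratios of 1.03 and 1.20, and Scn1a, a sodium channel, 1.05 and 1.18. Scn2a had the lowest, at −0.62 and −0.66.

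Receptor genes of one family differed by subunit. Of 12 GABA-A receptor subunits, 11 were tested, 2 were higher and 1 lower, with medians of −0.32 and −0.01. The higher ones were the subunits of tonic inhibition: Gabra4 (chromosome 5, 71569749 to 71658308, minus strand, opposite Gabrb1) at 288 against 77.6 CPM and at 225 against 53.7 CPM, and Gabrd (chromosome 4, 155384980 to 155398112, minus strand) at 152 against 46.2 CPM and at 232 against 51.9 CPM. Gabra5, a subunit abundant in the hippocampus, was lower, with log2 ratios of −2.72 and −2.21. Among 10 AMPA and NMDA subunits the median was 0.08 and 0.26. Grin2c, an NMDA subunit, was the higher one, at 89.7 against 32.1 CPM and at 108 against 30.4 CPM, and Gria2, an AMPA subunit, the lower one, with log2 ratios of −1.26 and −1.39. Of 14 kainate, delta and metabotropic receptors, 12 were tested, with medians of −0.11 and −0.07. Grm4, a presynaptic metabotropic receptor, was higher, at 43.4 against 10.5 CPM and at 85.8 against 17.7 CPM.

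Receptors for neuromodulators had 17 genes, of which 15 were tested, 3 were higher and 5 lower, with medians of −0.20 and 0.49, the former −0.91 without the spots within 8 spacings of the middle. The higher ones served acetylcholine and noradrenaline. The nicotinic subunit Chrna4 was at 91.9 against 23.4 CPM and at 125 against 30.0 CPM, and its partner Chrnb2, which lies opposite Adar, had log2 ratios of 1.32 and 1.25. The noradrenaline receptor Adra1b was at 89.0 against 22.1 CPM and at 92.6 against 21.7 CPM. The lower ones were the muscarinic receptor Chrm1, the serotonin receptors Htr1a and Htr2a, the dopamine receptor Drd1 and the cannabinoid receptor Cnr1. Cnr1 had the log2 ratios −3.06 (−4.47 to −2.11) and −2.87 (−3.52 to −2.35), from 7 and 26 UMIs. Htr1a and Drd1 had no more than 5 UMIs in either section, so their ratios were poorly measured. Under the label trained Htr2a had 2 UMIs within 8 spacings of the middle and 1 farther out, and Chrm1 had 6. Their ratios under that label were poorly measured too.

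Among calcium-binding proteins, Pcp4, a calmodulin regulator, was at 12406 against 2579 CPM and at 9685 against 1669 CPM, log2 2.27 (2.24 to 2.29) and 2.54 (2.52 to 2.56). It was the 1 higher gene of 12, and Hpca and Hpcal1, neuronal calcium sensors, were the lower ones, with list medians of −0.15 and −0.10. Calb1, calbindin, had log2 ratios of 0.29 and 0.17, and the former was −0.47 without the spots within 8 spacings of the middle. The protein kinase C family, without Prkcd, had 1 higher member and 1 lower member of 8, with medians of 0.01 and −0.13. Prkch, the eta isoform, was at 38.3 against 10.7 CPM and at 41.8 against 9.13 CPM, and Prkca, the alpha isoform, had log2 ratios of −2.94 and −1.49. Of 14 vesicle release genes none was higher and 3, Syt2, Stx1a and Cplx2, were lower in both sections, with medians of 0.01 and 0.17. Without the spots within 8 spacings of the middle, 2 were higher and 2 lower. Cplx1 then had log2 ratios of 1.03 and 1.33 and Vamp1 of 1.23 and 1.04, while Syt2, at −0.66 and −1.31, no longer passed. The complexins, which clamp and promote vesicle fusion, parted. Cplx1 was at 899 against 498 CPM and at 1286 against 514 CPM, while Cplx2 was at 24.6 against 114 CPM and at 68.7 against 213 CPM. Nefh, the heavy neurofilament chain of large axons, was the higher one of 8 neurofilament and axon genes (medians 0.73 and 0.49), at 260.5 against 70.2 CPM and at 194 against 65.8 CPM. Of 9 genes of transmitter transport and synthesis 6 were tested, with medians of −1.95 and −0.80, and Slc17a6 was the higher one.

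The genes lowest in relay thalamus spots included peptides of the hypothalamus and striatum and a factor of the cortex. Oxt, the hypothalamic peptide oxytocin, had 48 UMIs in relay thalamus spots of the section labelled trained, 34.7 against 700 CPM. In the section labelled untrained it had 0 UMIs, which at a floor of 3 UMIs over the pooled spots was at least 73.8-fold lower than the 66.1 CPM of the remaining spots. Penk, the enkephalin precursor, was at 18.1 against 262 CPM and at 8.67 against 77.4 CPM, and Mpped1 at 6.51 against 67.2 CPM and at 5.98 against 55.2 CPM. Fezf2, a factor of deep cortical projection neurons, and Crhbp, which binds corticotropin-releasing hormone, had 0 UMIs in the section labelled trained, at least 7.73-fold and 6.39-fold lower than the remaining spots by the same floor. Each had 3 UMIs in the other section, log2 −4.01 (−6.51 to −2.68) and −4.20 (−6.70 to −2.87). Gm19410, Hapln1 and Tmem200a had at most 1 UMI in each section. The neuropeptide Nts had 2 and 7 UMIs and the myosin light chain Myl4 5 and 8, with log2 ratios between −3.65 and −3.02. Penk lies opposite A830012C17Rik.

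Markers of other cell types were counted in the same way. Of 12 markers of forebrain pyramidal neurons 9 were lower and none higher, with medians of −3.17 and −2.29, or −2.86 in the section labelled trained with Fezf2 at its bound. Their summed level was 576 against 2769 CPM and 1028 against 2697 CPM, and Nrgn, a postsynaptic calmodulin-binding protein, had 138 against 1646 CPM and 315 against 1478 CPM. Of 10 markers of reticular nucleus and zona incerta GABA neurons, 9 were tested and 6 were lower, with medians of −2.90 and −1.47 and a summed level of 509 against 1696 CPM and 537 against 926 CPM. Pvalb, parvalbumin, is on this list and made up most of that sum in relay thalamus spots of both sections. Slc32a1, the vesicular GABA transporter, was at 6.51 against 168 CPM from 9 UMIs, and at 28.7 against 82.1 CPM from 96 UMIs. The GABA-synthesising enzymes Gad1 and Gad2 had log2 ratios of −2.95 and −1.23 and of −3.85 and −1.96. All 5 tested choroid plexus markers of 7 were lower, with medians of −1.53 and −2.08, the former −2.48 without the spots near the middle, and Ttr, transthyretin, at 1296 against 5609 CPM and at 2870 against 19006 CPM. Glial and vascular markers were close to the remaining tissue. None of 12 oligodendrocyte, 9 microglial and 10 vascular markers passed 2-fold in both sections, with medians of −0.29 and −0.26, −0.29 and −0.14, and −0.07 and 0.22. Astrocyte markers had medians of 0.13 and 0.22, and 1 of 12 passed: Gfap, the filament of reactive and fibrous astrocytes, had log2 ratios of −3.38 and −1.90. Over the 13 mitochondrially encoded genes the median was 0.15 in each section.

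Immediate early genes, which are transcribed soon after neuronal activity, were in part low in relay thalamus spots of both sections. Of 21 listed, 19 were tested, none was higher and 10 were at least 2-fold lower in both sections, with medians of −1.47 and −1.13. Arc, an activity-regulated cytoskeletal protein whose promoter drives the Cre of these mice, had 12 and 36 UMIs, 8.68 against 78.4 CPM and 10.8 against 71.1 CPM, log2 −3.12 (−4.13 to −2.37) and −2.71 (−3.24 to −2.25). Egr1, a zinc finger factor, was at 43.4 against 157 CPM and at 53.2 against 138 CPM. Fos, a subunit of the AP-1 factor, was nearer the remaining tissue, at 20.3 against 32.3 CPM and at 20.9 against 27.2 CPM, and its partner Jun had log2 ratios of 0.06 and 0.46. Dusp1, a phosphatase of MAP kinases, had the highest ratio of the list in both sections, at 0.97 and 0.79. Between the labels, the intervals for the level of Arc relative to the remaining spots overlapped, with a difference of log2 ratios of −0.41 (−1.34 to 0.52).

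Relay thalamus spots were then compared among themselves by distance from the middle column, split at the median of each section into 99 outer and 101 inner spots and into 97 and 103. Of 4517 genes with at least 50 UMIs in the members of each section, 4 (0.0886%) were at least 2-fold higher in outer spots of both sections and 4 (0.0886%) lower. Pvalb, parvalbumin, a calcium buffer of fast-firing neurons, was higher outside, at 551 against 258 CPM and at 439 against 204 CPM, log2 1.09 (0.84 to 1.35) and 1.10 (0.92 to 1.29). Vamp1, a vesicle protein of fast synapses that lies opposite Tapbpl and Cd27, had 330 against 156 CPM and 367 against 181 CPM. Nrtn, neurturin, a growth factor, and Gad1 were the other higher genes, and Gad1, which shares its locus with Gad1os, was at 70.1 against 22.5 CPM and at 97.6 against 46.7 CPM. The lower ones were Cbln1, a synaptic organiser, at 7.97 against 95.4 CPM and at 8.93 against 40.5 CPM, Gbx2, Calb1 and Bex4. Calb1 had log2 ratios of −1.70 (−2.19 to −1.25) and −1.08 (−1.38 to −0.79). Of the scoring genes, Tnnt1 changed sign, with log2 ratios of −0.47 (−0.89 to −0.08) and 0.44 (0.28 to 0.60), and Prkcd had 0.43 and 0.06. The inner spots under the label trained included the 69 nearest the middle. Split again among the spots more than 8 spacings from the middle, an alternative chosen after the data had been seen, into 62 and 69 spots and into 97 and 99, none of 2927 genes with at least 50 UMIs was 2-fold higher (0.00%) or lower (0.00%) in both sections. Of the 8 genes called above, only Pvalb, Vamp1 and Calb1 reached that minimum, and Cbln1, Gbx2, Gad1, Nrtn and Bex4 had 13 to 46 UMIs under the label trained. Pvalb then had log2 ratios of −0.39 (−0.68 to −0.10) and 1.06 (0.87 to 1.25), so its direction under the label trained turned when those spots were left out. Bex4 also turned under the label trained, from −1.05 to 0.13 (−1.34 to 1.52), and Nrtn went from 1.25 to 0.13 (−0.83 to 1.07) there. Cbln1 had −1.18 (−3.83 to 0.62), from 3 and 10 UMIs, and −2.02 (−3.01 to −1.21), and Gbx2 −1.12 (−2.66 to 0.10) and −1.24 (−1.93 to −0.62). Vamp1 had 0.24 (−0.14 to 0.61) and 1.01 (0.81 to 1.22), and Calb1 −0.07 (−0.73 to 0.57) and −1.004 (−1.31 to −0.71). Gad1 had 1.42 (0.52 to 2.44) and 1.04 (0.65 to 1.46), the former from 31 and 15 UMIs. Cbln1, Gbx2 and Gad1 were thus past 2-fold in both sections here too, from counts below the minimum. Tnnt1 had 1.29 (0.68 to 1.93) and 0.40 (0.24 to 0.57), and no longer differed in sign. Over all relay thalamus spots split by row at the median instead, 1 gene (0.0221%) was higher in lower-lying, more ventral spots of both sections and 0 (0.00%) were lower. That gene was Cbln1, at 105 against 15.8 CPM and at 43.5 against 12.1 CPM. Of its 77 UMIs under the label trained, 13 lay outside the 69 near-middle spots, and without those spots its log2 ratios were 1.55 (−0.26 to 4.20) and 1.69 (0.98 to 2.48).

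**Figure D4:**
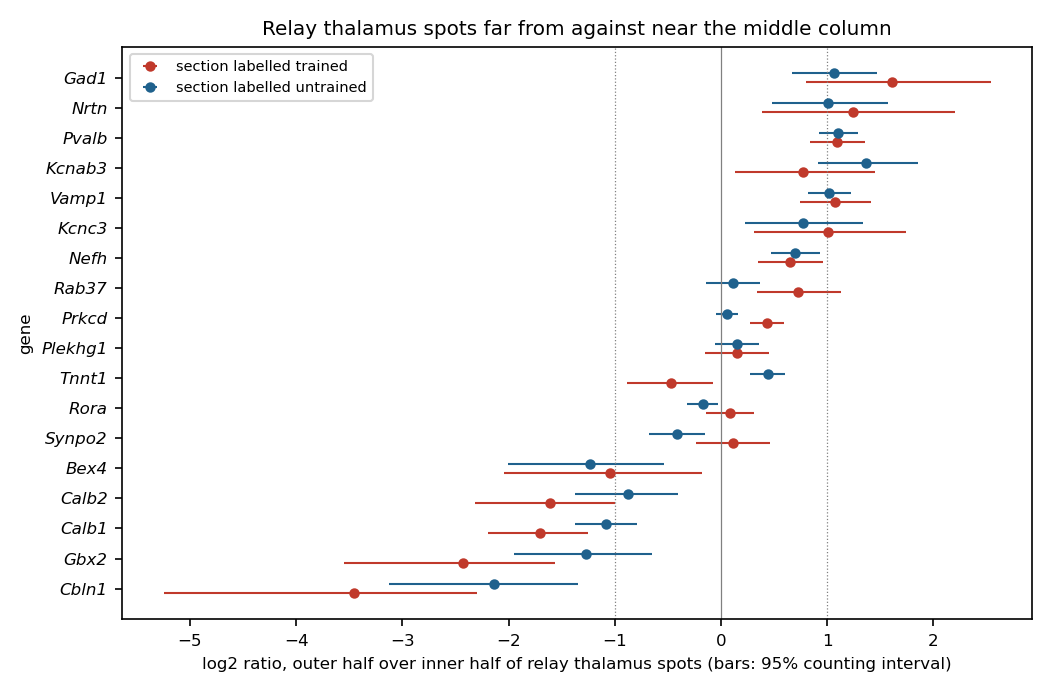
Log2 ratio of relay thalamus spots farther from the middle column over those nearer to it (x axis), for scoring genes and genes of the split (y axis), with bars for 95% counting intervals and dotted lines at 2-fold. All 200 spots of each section enter, the 69 near the middle included. Pvalb and Vamp1 lie near 1 in both sections, Cbln1 at −3.45 and −2.14, and Tnnt1 falls on opposite sides of 0.

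The 69 relay thalamus spots of the section labelled trained that lay within 8 spacings of the middle went in part against the name of the set. Compared with the other 131 of that section (544951 and 837264 pooled UMIs), they held most of its habenula markers, 80 against 8 UMIs over all 6 listed genes, a summed level of 147 against 9.55 CPM. Gpr151, an orphan receptor of habenula neurons, had 20 against 2 UMIs, log2 3.66 (1.90 to 7.08). Tac2, which encodes neurokinin B, had 19 against 2 UMIs, and Chrna3, a nicotinic subunit, 12 against 0. The unnamed gene model Gm5741 followed the same pattern, at 165 against 11.9 CPM. The medial thalamus list had a summed level of 925 against 419 CPM over its 5 genes. Of these Necab1, a neuronal calcium-binding protein, was at 226 against 60.9 CPM, Calb2, calretinin, at 147 against 51.4 CPM, Calb1 at 286 against 103 CPM, and Zic1 at 266 against 203 CPM, while Hcrtr1, an orexin receptor, had 0 and 1 UMIs. Gbx2 was at 105 against 33.4 CPM. The serotonin receptor Htr2c was at 71.6 against 15.5 CPM and Ttr at 2297 against 644 CPM. Lower there were Pvalb at 196 against 518 CPM, Nefm, the medium neurofilament chain, at 198 against 420 CPM, and Rorb at 29.4 against 80.0 CPM. Of the scoring genes, Prkcd was at 769 against 1046 CPM, while Tnnt1 was at 224 against 119 CPM and Rora at 457 against 493 CPM. Tcf7l2 differed little, at 431 against 395 CPM. These spots are therefore described by the scoring rule and by their genes.

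**Figure D5:**
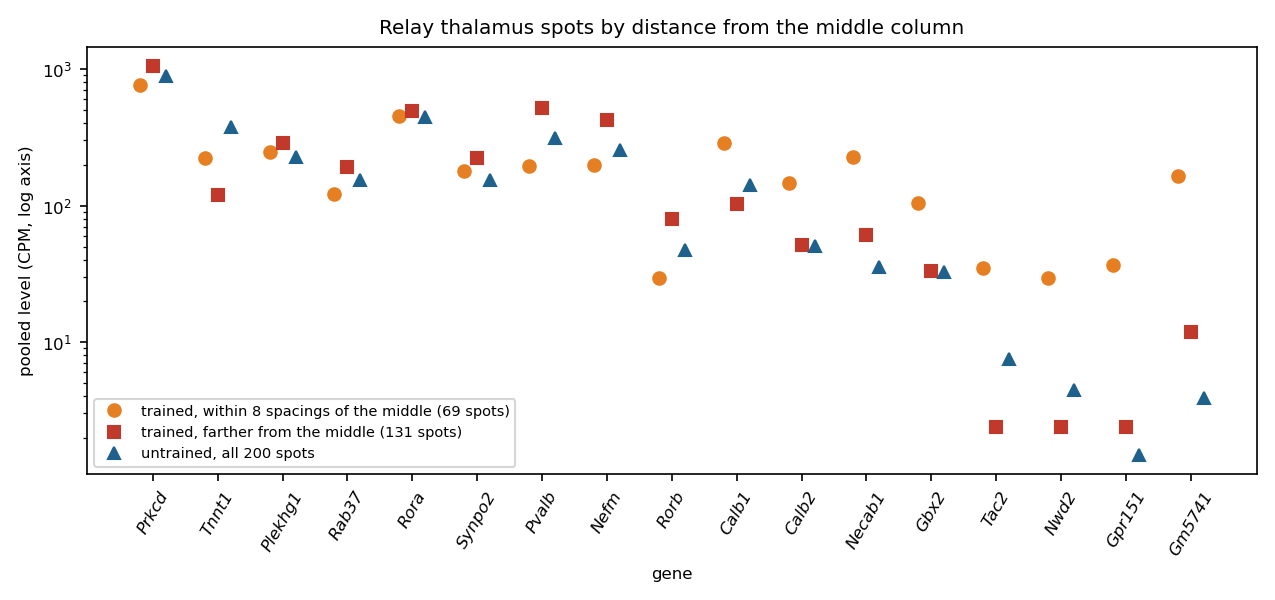
Pooled level in CPM (log y axis) of scoring and position-dependent genes (x axis) in the 69 relay thalamus spots near the middle column of the section labelled trained (circles), its other 131 (squares) and all 200 of the section labelled untrained (triangles). Habenula genes such as Gpr151, at 36.7 against 2.39 CPM, are raised in the 69 spots, and Pvalb is lowest there.

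Finally, the trained over untrained ratio of each gene in relay thalamus spots was set against the same ratio in the remaining spots, which removed what each whole section shared. Of 10506 genes, 141 (1.34%) were at least 2-fold higher and 294 (2.80%) at least 2-fold lower by this difference of log2 ratios, with a median of −0.01. None of the 10 thalamic transcription factors and none of the 15 projection neuron genes tested was among them, with median differences of 0.28 and 0.01. Among the genes with the largest positive difference, Gm5741 had 72.3 and 3.88 CPM, a difference of 3.74 (2.92 to 4.57), and Gpr151 had 15.9 and 1.49 CPM from 22 and 5 UMIs, a difference of 3.44 (2.08 to 4.80). Without the near-middle spots these differences were 1.17 and 1.24, from 10 and 13 UMIs of Gm5741 and from 2 and 4 UMIs of Gpr151. Cbln2, a cerebellin of synapses, had 47.0 and 12.3 CPM, a difference of 2.69 (2.12 to 3.27), and of 2.83 without the near-middle spots. Ctxn3, a small membrane protein, had 10.9 and 8.67 CPM, and its difference of 2.58 (1.67 to 3.49) came from the remaining spots, where its log2 ratio was −2.23. Without the near-middle spots the difference of Ctxn3 was 2.17, from 6 and 26 UMIs. Oxt had 48 and 0 UMIs, at least 38.7-fold higher under the label trained by the floor of 3 UMIs, and its level in the remaining spots was also 10.6-fold higher. Without the near-middle spots Oxt had 17 and 0 UMIs, at 20.3 CPM under the label trained, which lowers that bound. The genes with the largest negative difference, A830009L08Rik, Zdhhc23, Kcng1, Psmc3ip and Frzb, had 0 UMIs under the label trained and 10 to 15 UMIs under the label untrained, which the floor turns into only 1.38-fold to 2.07-fold lower at least.

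Markers of tissue outside the relay nuclei were then set between the labels in the same way. All 4 tested habenula genes were higher by the difference, with a median of 1.98, and so were 2 of 4 tested genes of the medial thalamus, Necab1 and Calb2, with differences of 1.21 and 1.43. The medial list of 5 had medians of 0.58 and −0.09 against the remaining spots, with Zic1 as its 1 higher gene, and of −0.32 and −0.14 without the near-middle spots. Without the spots within 8 spacings of the middle, which left 131 and 196 spots, an alternative chosen after the data had been seen, 164 genes (1.56%) were higher and 436 (4.15%) lower by the difference. None of the medial thalamus genes then passed 2-fold. Of the habenula genes Gpr151, Nwd2 and Tac2 had 2 UMIs each under the label trained, with differences of 1.24, −0.45 and −1.14. Chrna3 had 0 UMIs, and its floor of 3.58 CPM lay above the 2.15 CPM under the label untrained, so it had no direction. With Chrna3 at that bound the habenula median was at most 0.19, in place of 1.98 over all relay thalamus spots. The habenula list against the remaining spots had medians of −0.20 and −2.62 over all relay thalamus spots and of −3.24 and −2.73 without the near-middle spots, the former −2.33 with Chrna3, then at 0 UMIs, at its bound. In that comparison the transcription factors again had 8 higher genes and 1 lower, and the projection neuron list 15 higher. In the other direction, 7 of 9 GABA neuron markers and 7 of 12 pyramidal markers were lower by the difference, with medians of −1.72 and −1.16, the latter −1.10 without Fezf2, which had 0 UMIs under the label trained. Of these lists Slc32a1 had the largest difference, −3.10 (−4.07 to −2.14), with Gad1 at −1.72 (−2.13 to −1.32) and Nrgn at −1.34 (−1.56 to −1.12). The summed level of the GABA list was 509 and 537 CPM in relay thalamus spots but 1696 and 926 CPM in the remaining spots. Most of the sum in relay thalamus spots was Pvalb, so its near-equal values do not describe the other members. Within relay thalamus spots the trained over untrained log2 ratio was −0.67 for Gad1 and −0.91 for Gad2, against 1.06 and 0.98 in the remaining spots. Without the near-middle spots Gad1 was at 54.9 and 71.4 CPM in relay thalamus spots, and Gad2 at 7.17 and 23.6 CPM, the former from 6 UMIs. Away from the middle 6 of 9 and 5 of 12 were lower, with medians of −1.53 and −0.82. Of the immediate early genes Nr4a2 was higher and Nr4a1, Homer1 and Egr3 lower, with a list median of −0.41. Without the near-middle spots Nr4a1 and Homer1 had differences of −0.82 and −0.97, and those past 2-fold were Nr4a2 at 1.32, from 5 and 8 UMIs, and Egr3 and Bdnf, from 3 UMIs each under the label trained, at −1.67 and −1.30. Depth and the position of the chosen spots differed along with the label, and their part in these values was not tested.

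Relay thalamus spots were last set beside other thalamic tissue, the 100 spots of each section with the highest level of the medial thalamus markers Tcf7l2, Calb2, Necab1 and Zic1. These lay at a median of 1.75 and 2.25 spacings from the middle, and 27% and 3% of them touched a relay thalamus spot. Slc17a6 was close in both sets, at 414 against 423 CPM and at 239 against 281 CPM, log2 −0.03 (−0.23 to 0.16) and −0.23 (−0.39 to −0.07), and Ntng1 had log2 ratios of 0.13 and 0.63. Pvalb separated them, at 391 against 77.5 CPM and at 314 against 51.9 CPM, log2 2.33 (1.96 to 2.73) and 2.59 (2.30 to 2.91). Against all remaining spots, at 546 and 263 CPM, Pvalb had log2 ratios of −0.48 (−0.61 to −0.36) and 0.26 (0.16 to 0.35). Patj was at 162 against 31.0 CPM and at 169 against 22.3 CPM, and Gabrd at 152 against 34.6 CPM and at 232 against 57.1 CPM. Pcp4 was more abundant in relay thalamus spots with a log2 ratio of 1.52 in each section, and Nefh with ratios of 1.81 and 1.51. Gbx2 was higher in the medial spots, at 61.5 against 136 CPM and at 32.6 against 72.1 CPM. The relay thalamus set under the label trained included its 69 spots within 8 spacings of the middle. Without those spots its Slc17a6 was at 376 CPM, its Pvalb at 518 CPM and its Gbx2 at 33.4 CPM. The 100 spots that followed the relay thalamus spots by score touched them in 80% and 88% of cases and had Pvalb at 309 and 304 CPM. These differences were not tested, since spots of a section are not replicates, and the medial markers that chose the comparison spots are left out of them.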

How the data were processed

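The authors counted UMIs per gene and spot with Space Ranger 2.0.0 on the mm10 reference, and these deposited counts were the measurement used. The deposited enrichment tables also held a score by the authors, Moran's I, which is not reported, and gene totals that equalled those of the matrices for all 20513 and 21498 genes listed. Other columns and image files were not used here. Members and gene lists were chosen with earlier results of these data known. UMIs of spots were pooled and scaled to CPM here in Python 3.11.15 (pandas 2.3.3, scipy 1.17.1, numpy 2.4.6), and figures were drawn with matplotlib 3.10.9. Log2 ratios used a pseudocount of 0.5 UMI, with exact conditional binomial intervals, exact Poisson intervals for CPM Clopper-Pearson intervals for shares and normal-approximation intervals for differences of log2 ratios, all at 95%. Genes needed 200 UMIs in each section, counted over spots of at least 2000 UMIs. The method was tested before use on simulated counts with Poisson error only, in which 200 of 10506 genes were changed. For the sections labelled trained and untrained, 99% and 99% of raised genes and 97% and 98% of lowered genes were recovered. Unchanged genes called past 2-fold numbered 49 and 6, so such calls were more frequent at the lower depth. Named genes were the 6 scoring genes, the 15 with the highest and 10 with the lowest ratios shared by both sections, the leading and defining members of 24 lists, and the 5 genes at each end of the section difference with the same sign on both sides of the brain. Genes singled out in the splits and in the middle were chosen after their values had been seen. Positions came from GENCODE vM21 on GRCm38/mm10, matched for 10502 of 10506 genes by Ensembl identifier. Thinning used seed 7 and no doublet caller was run, since a spot is a region. Some genes of the lists are counted but not reported here by name.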

Additional observations from a re-analysis of the deposited data

Results flagged for a closer look

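In the section labelled trained, 6 spots under 2000 UMIs had a score at or above that of its last relay thalamus spot, and in the section labelled untrained there were 0. These spots were outside the measurement because of the depth minimum.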

How the results depend on the processing

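No paired analysis was possible because each label had 1 section, and a shared replicate number carries no pairing of more than 1 sample. Depth limited genes with few UMIs, and counts of genes past 2-fold depended on the filter. The main counts were 208 higher, 545 lower, and 141 and 294 for the difference between labels. Without a filter on low counts they were 2029, 1158, 3357 and 1387 of 19842 genes in place of 10506, and with at least 1000 UMIs they were 93, 196, 13 and 45 of 4856. With spots thinned to 2000 UMIs, 101 of 5052 genes were higher, 148 lower and 140 lower between labels. A pseudocount of 5 UMIs left 336 lower genes and 46 lower between labels, and the columns below the middle alone 246 lower genes of 7375. With 100 spots per section, 342 and 495 genes passed between labels, and with 300 spots 185 were lower between labels. The share of adjacent spots that were members, 41.2% and 52.4%, was 28.3% and 34.5% with 100 spots, 51.8% and 68.4% with 300 spots, 45.8% under the label trained with a minimum of 4000 UMIs, 37.2% there without Prkcd and 48.8% under the label untrained without Tnnt1. Leaving out any 1 scoring gene kept 168 to 182 of 200 members in a section and 190 to 202 of the 208 higher genes. Of 345 values of leading higher genes 319 moved by less than their interval, and all lay between 1.52 and 3.23. No direction of the 15 leading higher and 10 leading lower genes was reversed under the alternatives run. Without the near-middle spots, an alternative chosen after the data had been seen, the trained ratio of Calb1 turned from 0.29 to −0.47, of Necab1 from 0.87 to −0.17, of Htr2c from 0.11 to −1.13, of Gpr151 from 0.75 to −1.70 and of Gm5741 from 0.40 to −2.14, that of Chrna3 from 0.40 to a level with 0 UMIs, the differences of Tac2 from 1.16 to −1.14 and of Nwd2 from 1.75 to −0.45, and the outer over inner ratios under the label trained of Pvalb from 1.09 to −0.39 and of Bex4 from −1.05 to 0.13. Members with at least 2 adjacent members, an alternative chosen after the data had been seen, gave 222 higher genes, of which 202 were shared with the main set.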
